A study of Macaca mulatta with 32 samples.

Results

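The circular RNAs (circRNAs) of 9 genes were described: QKI, MBNL1, MBNL2, RBFOX1 and RBFOX2, whose proteins bind RNA and regulate splicing, and TNRC6A, TNRC6B, TNRC6C and AGO2, whose proteins carry out silencing by microRNAs. Members were all circRNAs that the deposited table assigns to one of these symbols, which gave 80 of its 52828 circRNAs. For RBFOX2 the 12 circRNAs were listed under the older symbol RBM9 and were matched by gene ID, and the other 68 stood under the member symbol itself. RNA came from 8 brain regions of rhesus macaques: prefrontal (PFC), posterior cingulate (PCC), temporal (TC), parietal (PC) and occipital cortex (OC), the CA1 field and dentate gyrus (DG) of the hippocampus, and cerebellar cortex (CB). Each library held the pooled RNA of 2 animals of one sex and age, 10 or 20 years, and the 4 pools are named by both (10F, 10M, 20F and 20M, with F for female and M for male). Every pool was sampled in each region, so the 32 libraries came from 8 animals, with 4 libraries per region. All libraries were made from RNA from which much of the mRNA and the ribosomal RNA had been removed and which was then digested with RNase R, which degrades linear RNA.

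A circRNA forms when a downstream splice donor joins an upstream acceptor, and reads across this back-splice junction identify it. QKI and MBNL proteins can promote the circularization of exons when they bind the flanking introns, and MBNL1 is known for a circRNA from its own exon. RBFOX proteins set alternative exons in neurons. AGO2 holds the microRNA, and the TNRC6 (GW182) proteins bind AGO2 and recruit the deadenylases that shorten the target mRNA. The data here measured the circRNAs made from these genes, not the proteins or the linear mRNAs.

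The values are in the unit that the authors call TPM, which here scales the back-splice reads of a library by a single factor. They are not divided by length, and levels are therefore compared as junction values. The libraries held 18813 (CB_10F) to 894932 (PCC_20F) back-splice reads, and 1 read was worth 18.7 TPM in CB_10F. Summed circRNA values of cerebellar granule and Purkinje cell genes, of which 4 of 7 had a circRNA, were 122 to 257 TPM in CB and 0 to 71.1 TPM in the other 28 libraries. The 5 astrocyte genes with a circRNA, GFAP and AQP4 among them, were at 0 in all 4 CB libraries and reached 36.4 TPM elsewhere, and none of 4 microglial genes had a circRNA. Neuronal genes summed to 6.52 to 45.1 TPM in CB and 10.4 to 184 TPM elsewhere. The part of cell composition in the results on CB was not tested, and in tissue more cells of a type and more circRNA per cell cannot be told apart.

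Of the 80 circRNAs, 28 passed the expression filter of the study's methods, against 17050 of all 52828. The 52 that did not pass held 493 of the 8860 back-splice reads of the 9 hosts, at most 28 reads each, and the least abundant that passed held 31. Together the 9 hosts took 0.124% of the 7159279 back-splice reads. The table placed 74 of the 80 in exons and 6 in introns, so 92.5% were exonic, against 83.7% of the 41015 circRNAs with a host symbol. The median genomic distance between start and end was 10132 bases, against 6292 for these 41015. None of the 80 was found in all 32 libraries, the most widespread was found in 27, and 43 (53.8%) were found in 1 library only, close to the 53.1% of circRNAs with a host.

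The 9 hosts differed widely in how much circRNA they gave. RBFOX1 led with 4049 reads from 13 circRNAs, more than 96.7% of the 8047 hosts. TNRC6A followed with 1529 reads from 18 circRNAs, and QKI with 1106 from 7. AGO2 gave 864 reads from 7 circRNAs and TNRC6C 846 from 10. RBFOX2 gave 205 reads from 12 circRNAs and TNRC6B 134 from 6, whereas MBNL2 (71 from 5) and MBNL1 (56 from 2) had fewer reads than the median host, which had 89 reads and 3 circRNAs. RBFOX1 and TNRC6A were found in all 32 libraries, QKI and AGO2 in 27, TNRC6C in 25, RBFOX2 in 15, TNRC6B in 10, MBNL1 in 5 and MBNL2 in 4.

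The host sum is the value of all circRNAs of a gene added in a library. RBFOX1 had a mean host sum of 116 ± 58.7 TPM (SD, n = 32 libraries) and was the highest of the 9 in 21 libraries. TNRC6A had 56.0 ± 43.5 TPM, QKI 48.7 ± 54.8 TPM, AGO2 29.0 ± 25.8 TPM and TNRC6C 27.5 ± 24.7 TPM over the same libraries. The means of neighbouring hosts from TNRC6A to TNRC6C were closer than their SDs. RBFOX2 (10.1 ± 23.9 TPM), TNRC6B (3.96 ± 8.19 TPM), MBNL1 (2.05 ± 5.84 TPM) and MBNL2 (1.19 ± 3.50 TPM) had a median of 0.

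**Figure D1:**
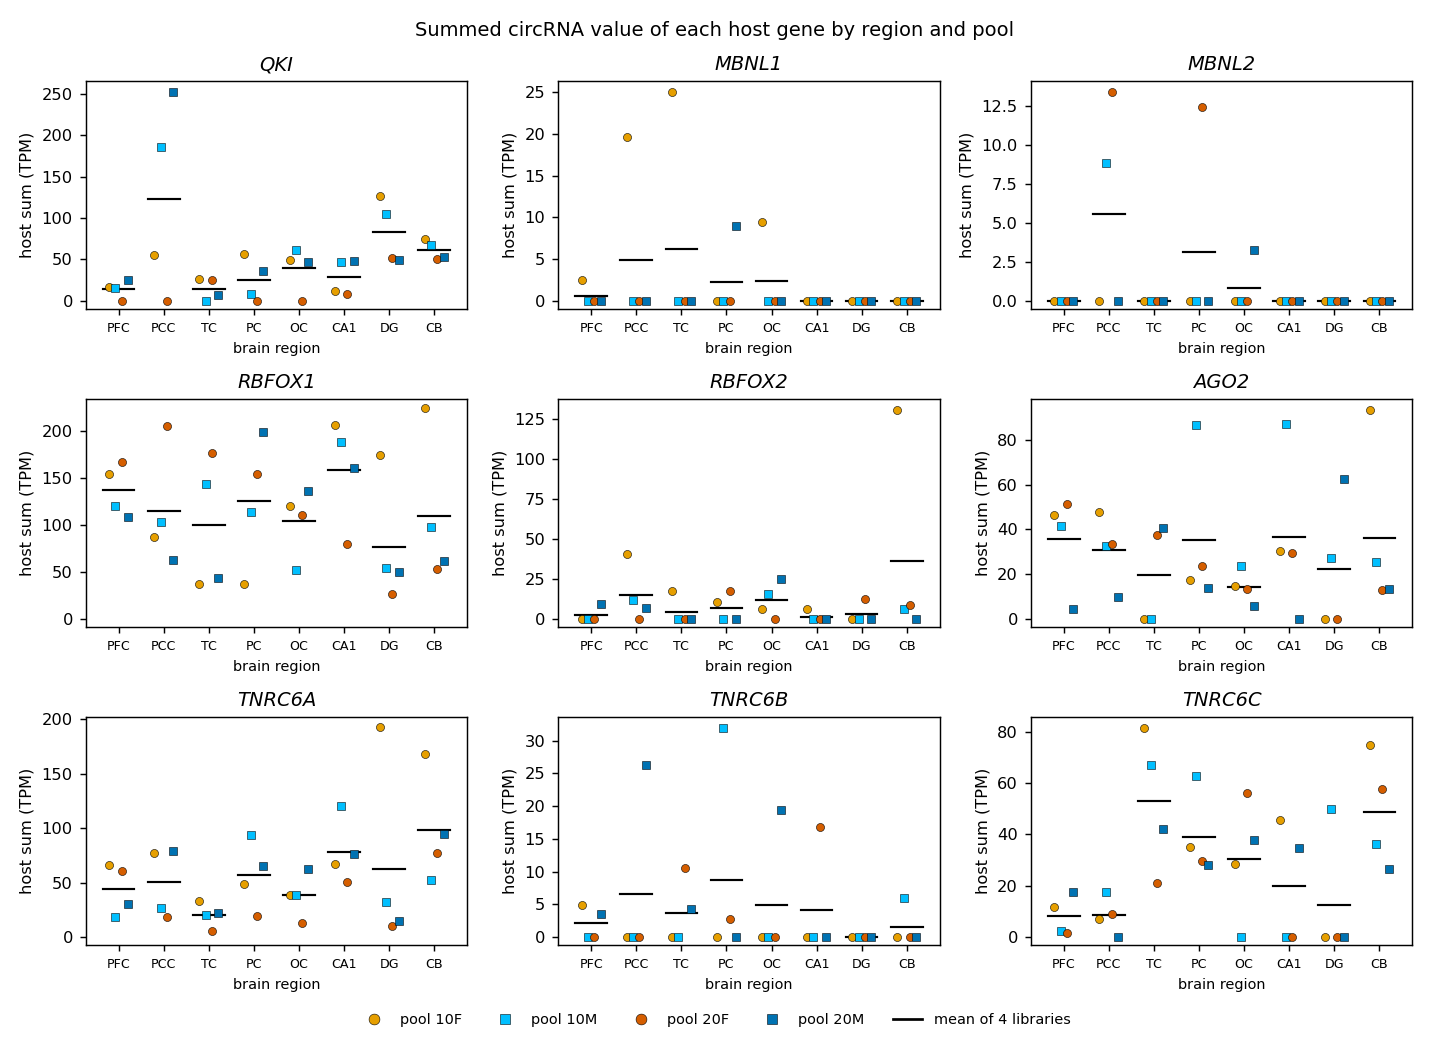
Host sums in TPM (vertical axes, each with its own scale) by brain region (horizontal axes), with 1 point per library coloured by pool and a line at the mean of the 4 libraries. RBFOX1 and TNRC6A lie above 0 in all 32 libraries, while MBNL1 and MBNL2 lie at 0 in CA1, DG and CB.

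Primers that the study designed for 2 of these circRNAs are shown because both are described in detail below, one from TNRC6A (chromosome 20, 23227042 to 23246911, plus strand) and one from QKI (chromosome 4, 160236868 to 160260506, plus strand). They are written 5′ to 3′ in lower case. Positions are those of the table, whose genome build is not given in the sources used here.
circTNRC6A forward: aaagaaggaagctgctcaaa
circTNRC6A reverse: tcttcttcttgcactaaatccc
circQKI forward: ccgaggcaaaggctcaat
circQKI reverse: cccacagcatcaggcaat

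QKI, an RNA-binding protein of the STAR family that promotes exon circularization, gave 7 circRNAs on chromosome 4. The circRNA from 160236868 to 160260506 held 999 of the 1106 reads (90.3%), and 4 of the 7 shared its start and together held 96.7%. A longer circRNA with the same start, ending at 160318242, held 51 reads in 7 libraries, and one from 160318099 to 160353159 held 21 reads in 1 library. Outside the neocortex the leading circQKI was found in 11 of 12 libraries. In CB it had 74.9, 67.6, 47.8 and 52.8 TPM in pools 10F, 10M, 20F and 20M, and in DG 60.2, 105, 51.3 and 49.2 TPM. The lowest CB library and the lowest DG library were both above every TC library, where 1 of 4 held the circRNA, at 7.25 TPM. Of 8 oligodendrocyte markers 5 had a circRNA. Their summed level had a median of 20.2 TPM in the hippocampus (range 0 to 91.0) and 0 in the neocortex (0 to 38.3), and ran from 0 to 9.02 TPM in CB, where those of MBP, MOBP and MAG were at 0. Their part in the levels of circQKI was not tested.

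Within the neocortex circQKI went by pool. The leading circQKI was at 0 in all 5 neocortical libraries of the 20F pool, which together held 2003093 back-splice reads. Another circRNA of QKI, from 160318099 to 160353159, was present in TC_20F, with 21 reads (24.8 TPM). In the 20M pool the leading circQKI was found in all 5, with 231 reads among 1057018, at 25.7 TPM in PFC, 236 in PCC, 7.25 in TC, 35.8 in PC and 40.5 in OC. In the 10F pool it was found in 4 of 5 and in the 10M pool in 3 of 5. The same 20F pool had 8.37 TPM in CA1 (2 reads), 51.3 in DG (25 reads) and 47.8 in CB (44 reads). The 0 values of these animals were thus limited to the neocortical libraries, though CA1 was only at the lowest count listed. A 0 in the table stands for fewer than 2 reads. PFC_20F and PCC_20F are among the 5 libraries of highest clean-read share in the study's sample table. Of the other 3, PC_10M was also at 0, while CA1_20M and DG_20M held circQKI. TC_20F, PC_20F and OC_20F, at 0 too, are not among those 5, and the part of this share in the result was not tested. Of the 1626 filtered circRNAs found in at least 12 of the other 15 neocortical libraries, 7 (0.431%) were at 0 in all 5 of the 20F pool, circQKI among them, and for the 10F, 10M and 20M pools the same count was 2 of 1480, 0 of 1701 and 0 of 1536. This count was chosen after the values had been seen.

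**Figure D2:**
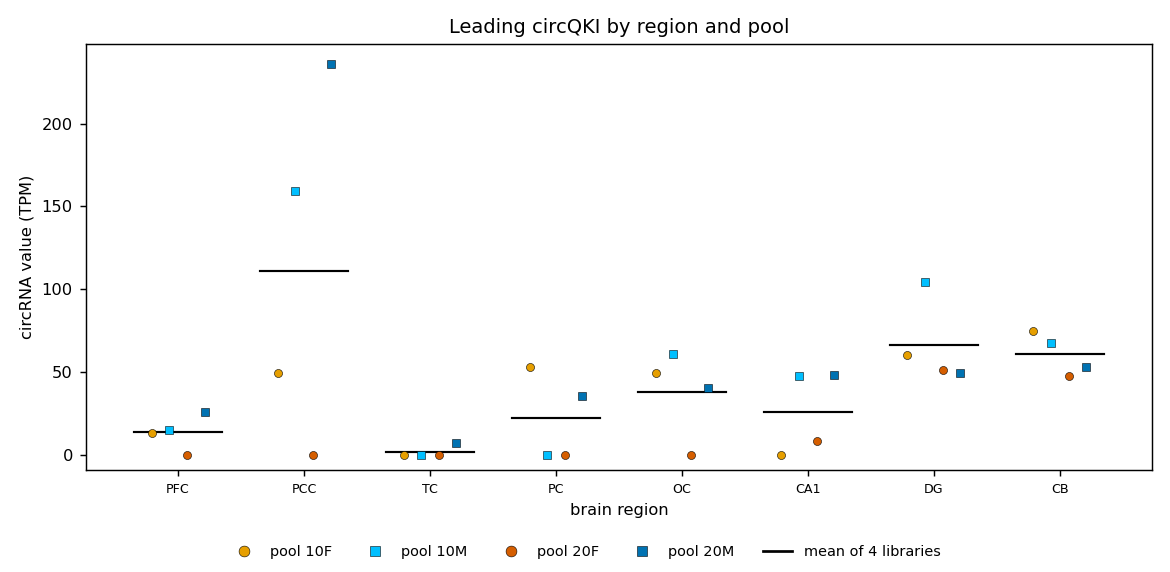
Value of the leading circQKI in TPM (vertical axis) by region (horizontal axis), with 1 point per library coloured by pool and a line at the mean of the 4 libraries. Pool 20F lies at 0 in PFC, PCC, TC, PC and OC and at 8.37 to 51.3 TPM in CA1, DG and CB. Its value in CA1 rests on 2 reads.

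Over both ages circQKI had a median of 47.7 TPM in the 16 male and 10.8 TPM in the 16 female libraries, with ranges of 0 to 236 and 0 to 74.9 TPM. The male libraries thus overlapped the female ones over nearly the whole female range. The study listed this circRNA as male biased on these same samples, so its direction is no independent evidence. The log2 difference between males and females was 1.57 (SE 0.55), with an adjusted p of 0.813 by limma over 17050 circRNAs. By pool, the host sum of QKI had means of 52.1 ± 37.0 TPM in 10F and 61.1 ± 61.4 TPM in 10M. It had 16.9 ± 22.8 TPM in 20F and 64.7 ± 77.4 TPM in 20M (SD, n = 8 libraries each). The female and male means were thus closer at 10 years than at 20 years.

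MBNL1 and MBNL2, muscleblind-like splicing regulators, gave few circRNAs. The leading circMBNL1 (chromosome 2, 135238373 to 135256234, minus strand) had 44 reads in 5 neocortical libraries, with 25.1 TPM in TC_10F, 19.7 in PCC_10F, 8.94 in PC_20M, 2.48 in PFC_10F and 2.37 in OC_10F. Of these 5 libraries, 4 were of the 10F pool. The other circMBNL1, from 135212468 to 135216285, held 12 reads in 1 library. The leading circMBNL2 (chromosome 17, 77747139 to 77747402, plus strand), which spans 264 bases, had 44 reads, all in PCC_20F, the deepest library. Of the 5 circRNAs of MBNL2, 4 shared the start at 77747139 and held 95.8% of the reads, with 13 reads for the one ending at 77767805 and 9 for the one ending at 77766422. For both genes the depth was too low to compare regions.

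RBFOX1, a splicing factor of neurons and muscle, gave 2 abundant circRNAs on the plus strand of chromosome 20. The leading one, from 7757279 to 7785334, had 2229 reads in 26 libraries. The second, from 7697368 to 7697610, spans only 243 bases and had 1323 reads in 27 libraries. Together they held 87.7% of the reads of RBFOX1. Another circRNA, from 7757282 to 7785334, differed from the leading one only in a start 3 bases downstream. It held 142 reads, 5.99% of the reads of this pair, and both starts were found in 12 of the 13 libraries with the later start.

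The share of RBFOX1 reads from each of the 2 leading circRNAs varied between libraries. Both were found in 21 of the 32 libraries, the longer one led in 16, the shorter one in 15, and they were equal in CB_20F. The ends of the range were far apart also where reads were many. In PFC_10F 123 of 187 reads came from the longer circRNA and 0 from the shorter, whereas in PCC_10F of the same animals 0 of 62 came from the longer and 62 from the shorter. In PC_10F it was 0 and 49 of 57 reads. Here too 0 stands for fewer than 2 reads. In OC, by contrast, the 4 libraries had 57.3% to 68.0% from the longer circRNA.

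In CB the longer circRNA held 0, 46.2, 42.9 and 0% of RBFOX1 reads in pools 10F, 10M, 20F and 20M, a mean of 22.3% ± 25.7 (SD, n = 4), against 48.8% ± 29.6 (SD, n = 28) in the other libraries. The ranges overlapped, since the other libraries ran from 0 to 100%. The exact two-sided permutation test over 35960 choices of 4 libraries gave p = 0.0982 and an adjusted p of 0.471 over 297 hosts, of which 3 (1.01%) were called. RBFOX1 was the only one of the 9 hosts with at least 10 reads in every CB library.

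**Figure D3:**
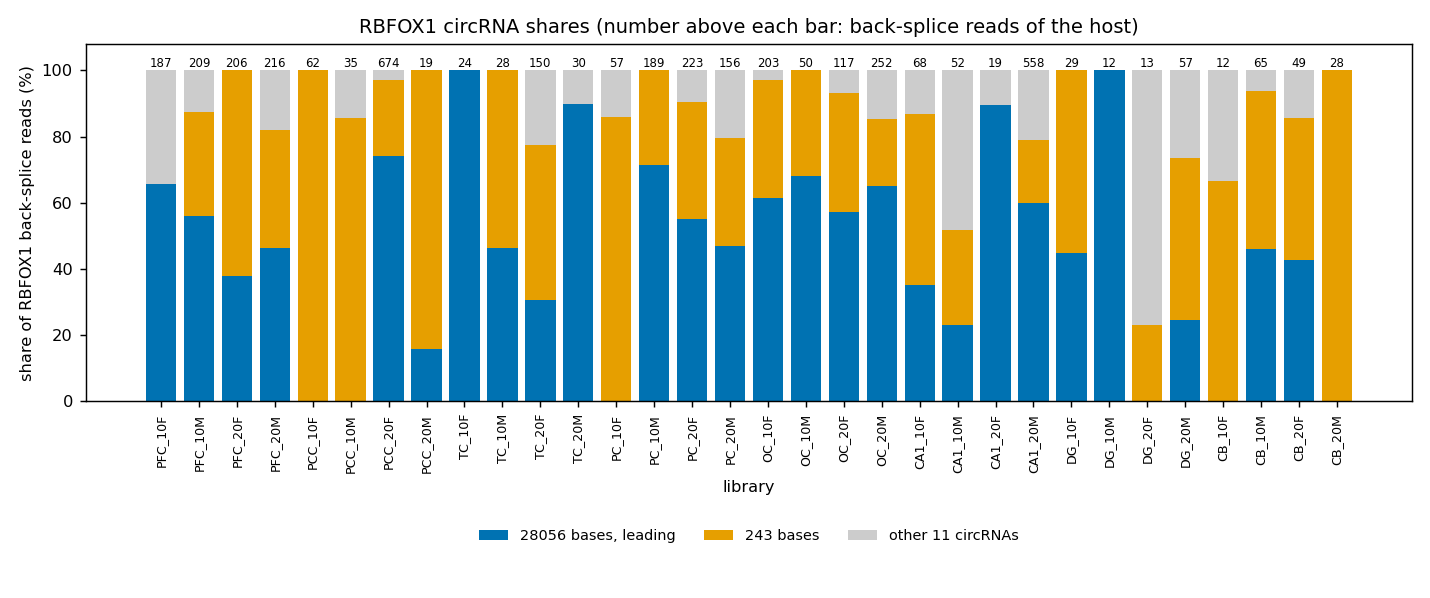
Share of RBFOX1 back-splice reads in percent (vertical axis) from the circRNA spanning 28056 genomic bases, the one spanning 243 bases and the other 11, in each of the 32 libraries (horizontal axis), with the number of RBFOX1 reads above each bar. In PFC_10F the shorter circRNA was listed at 0, and in PCC_10F it held all 62 reads.

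RBFOX2, the broadly expressed relative of RBFOX1, spread 205 reads over 12 circRNAs on the minus strand of chromosome 10, and none dominated. The circRNAs from 79691234 to 79704309, from 79704256 to 79708289 and from 79737565 to 79737789 held 41, 40 and 33 reads. The first of these had 74.9 TPM in CB_10F, 33.7 in PCC_10F, 8.69 in CB_20F and 2.70 in OC_20M and was at 0 elsewhere. The value in CB_10F rests on 4 reads. Its log2 difference between CB and the other regions was 1.61 (SE 0.55, adjusted p = 0.143 by limma), and without PCC_10F, the highest library outside CB, it was 1.74 (SE 0.47, adjusted p = 0.0422).

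TNRC6A, one of the scaffold proteins of microRNA silencing, had the most circRNAs of the 9 genes. They lay on the plus strand of chromosome 20, and several ends were used again and again. The end at 23256996 was shared by 5 circRNAs with 64.7% of the reads, found in 31 libraries. The start at 23227042 was shared by another set of 5 with 39.0%, and the circRNA between these positions, with 292 reads, belongs to both. The leading circTNRC6A, from 23256550 to 23256996, spans 447 bases and held 462 reads (30.2%) in 21 libraries, of which 42.2% came from CA1_20M alone. Of all 80 circRNAs, 67 (83.8%) shared a start or an end with another of their host. The share was 77.8% in the 38572 circRNAs of all hosts with at least 2, and 81.7% in the 19784 of hosts with 6 to 18, a range that leaves out MBNL1 and MBNL2.

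**Figure D4:**
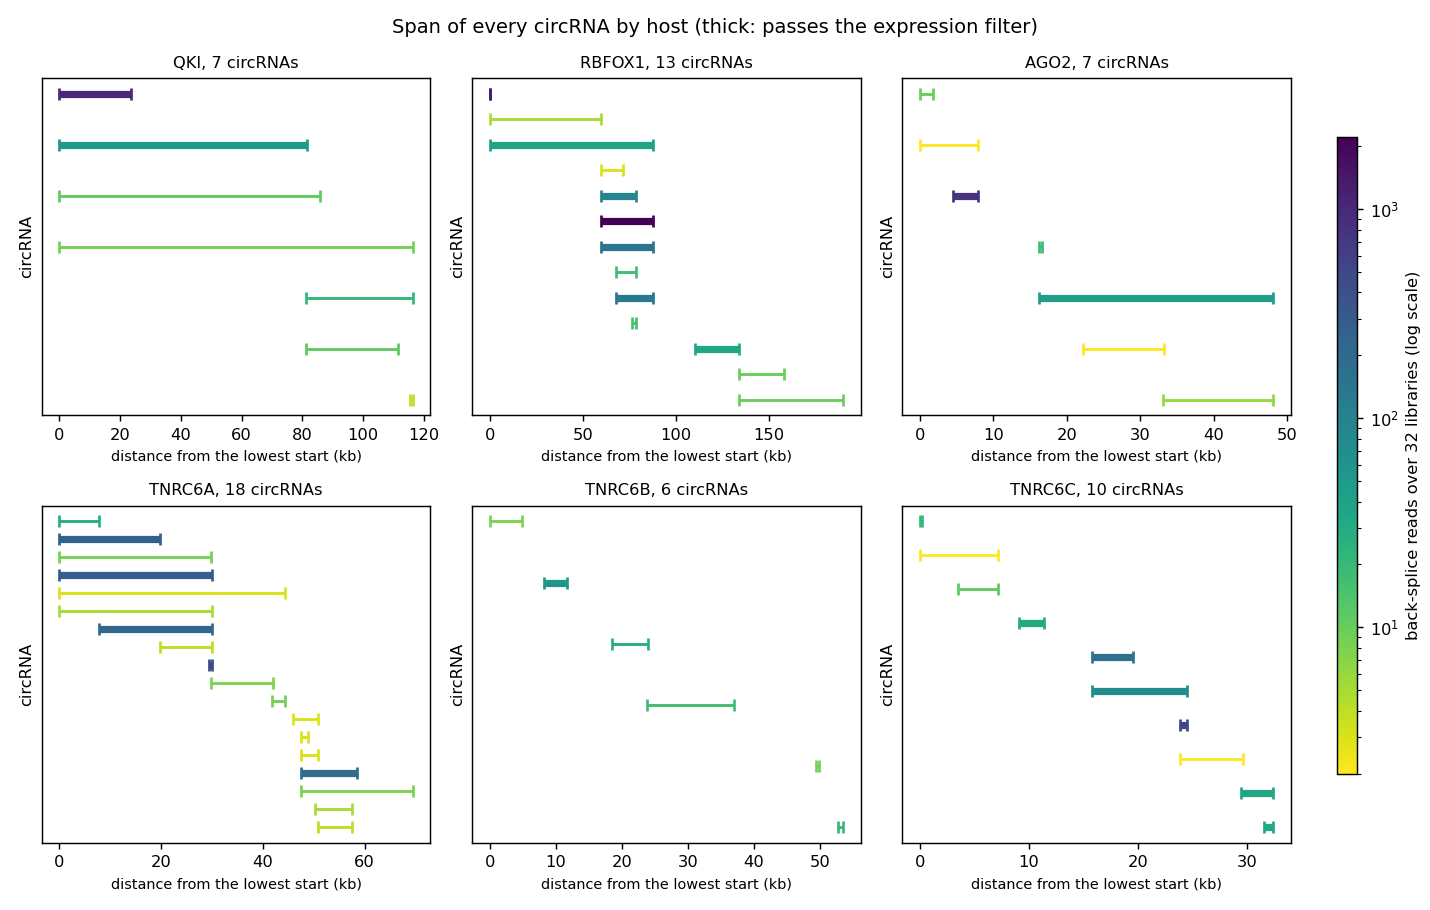
Genomic span of every circRNA of 6 hosts, as distance in kb from the lowest start of the host (horizontal axes), with 1 line per circRNA coloured by its back-splice reads over 32 libraries on a log scale. Thick lines mark circRNAs that passed the filter. Lines that begin or end at the same distance share a splice site and 5 circRNAs of TNRC6A share 1 end.

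One circTNRC6A was higher in CB than in the other regions. The circRNA from 23227042 to 23246911, which the table labels intronic although 4 exonic circRNAs of the host share its start, had 74.9, 25.6, 34.8 and 33.0 TPM in the CB libraries of pools 10F, 10M, 20F and 20M. These values stood for 4, 17, 32 and 15 reads, and the exact Poisson 95% interval of the 4 reads in CB_10F was 20.4 to 192 TPM. It was at 0 in all 12 libraries of TC, CA1 and DG, which held 1993387 back-splice reads, and was found in 8 of the 16 libraries of PFC, PCC, PC and OC, at 8.87 to 43.2 TPM. The CB libraries overlapped with 3 of these (PFC_20F, PCC_10F and PCC_20M). The log2 difference between CB and the mean of the other 7 regions was 3.13 (SE 0.71), with an adjusted p of 0.0105 by limma, and the exact permutation test of the deposited values gave p = 0.000945. Over all libraries of a group, CB held 68 of its reads among 486881 back-splice reads and the other regions 197 among 6672398.

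The study listed the same circTNRC6A as enriched in CB from these samples, so the call is no independent evidence. The study also reported circTNRC6A as higher in CB by RT-qPCR, an assay apart from the sequencing. The candidates for RT-qPCR were picked by the study from its region-specific circRNAs in the sequencing. The circTNRC6A called here is shown beside a circRNA that uses the same start. The circRNA from 23227042 to 23256996 was found in 3 of 4 CB libraries and in 8 of the 12 libraries of TC, CA1 and DG, at up to 76.4 TPM in CA1_10M. In CB its mean was 10.9 TPM with an SD of 11.99 over 4 libraries, against a mean of 12.5 TPM with an SD of 18.04 over the other 28 libraries, and p was 0.867 in the exact permutation test. The pair thus shared a start and differed in TC, CA1 and DG, where the shorter circle was not detected in any of 12 libraries. These regions were grouped by that absence, so the difference describes the values and is no test. The lowest value listed for any circRNA was 10.29 TPM in TC_10M, 12.03 in DG_10F and 9.09 in DG_10M. The shorter circle was found at as little as 8.87 TPM in other regions, a level that these libraries could miss. In the other libraries of TC, CA1 and DG the lowest listed value was at most 8.37 TPM.

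TNRC6C gave 10 circRNAs on the plus strand of chromosome 16, and 1 of them was called in CB as well. The circRNA from 73367930 to 73371723 had 74.9, 18.03, 13.0 and 13.2 TPM in the CB libraries of pools 10F, 10M, 20F and 20M, from 4, 12, 12 and 6 reads. It was found in 10 of the other 28 libraries, at 2.31 to 21.4 TPM. The 3 CB libraries other than CB_10F lay within that range. The log2 difference was 2.55 (SE 0.64), with an adjusted p of 0.0233 by limma, and the exact permutation test gave p = 0.00164. CB held 34 of its reads among 486881, and the other regions 132 among 6672398. A circRNA from the same start to 73376592 held 72 reads and was found in 2 of 4 CB libraries and 9 of the other 28, with means of 4.37 and 2.32 TPM and p = 0.438 in the exact permutation test.

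Of the 28 filtered circRNAs, these 2 were the only ones called in CB, against 2.73% of all 17050 (465, of which 341, or 2%, were higher in CB). By the exact permutation test 2 of the 28 were higher in CB at p under 0.01, against 3.2% of all circRNAs tested. That test ignored the pools, although each pool gave a library to CB. Both calls depended on single CB libraries and on pools. Without CB_10F, the shallowest library, the log2 differences were 2.87 for circTNRC6A (adjusted p = 0.0588) and 2.02 for circTNRC6C (adjusted p = 0.166), and circTNRC6C also fell short without CB_10M (adjusted p = 0.0826) or CB_20M (adjusted p = 0.0546). Without each pool in turn, circTNRC6A passed in 1 of 4 cases and circTNRC6C in 0 of 4. The direction was the same in each of these cases.

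The 2 calls were also set against the share of all circRNAs called under other settings. Both were called with a pseudocount of 1 TPM (2.53% of all called), with no filter (1.27%), with libraries rescaled to 1 total (2.43%), with reads divided by size factors (2.92%), with the pool as a block (2.78%) and with region as the only factor (2.67%). With a pseudocount of 0.2455 TPM (2.13%), without the 20F pool (1.5%) and without the 5 libraries of highest clean-read share in the study's sample table (2.28%), only the circTNRC6A passed. With voom neither passed (290 of all 17050 circRNAs called), with adjusted p-values of 0.0598 for the circTNRC6A and 0.105 for the circTNRC6C.

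**Figure D5:**
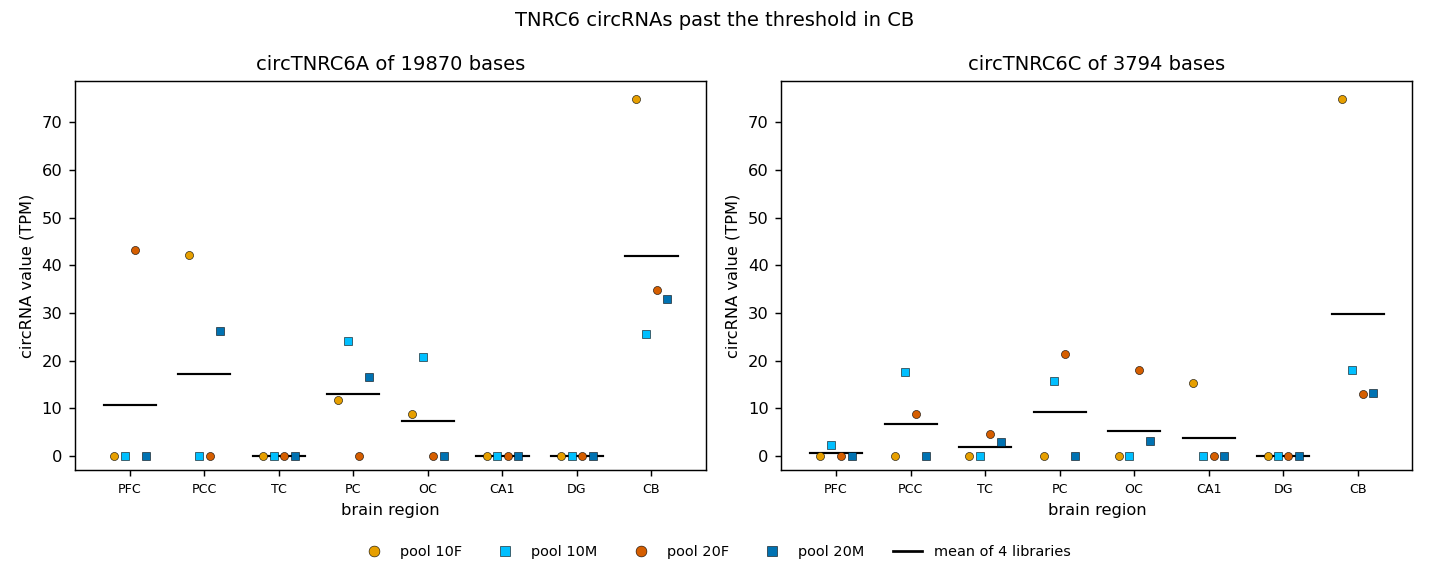
Value in TPM (vertical axes) of the circTNRC6A from 23227042 to 23246911 and of the circTNRC6C from 73367930 to 73371723 by region (horizontal axes), with 1 point per library coloured by pool and a line at the mean of the 4 libraries. The highest point of both panels is CB_10F, at 74.9 TPM from 4 reads.

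For the other regions, each against the mean of the rest, 0 of the 28 circRNAs were called by limma. The shares of all circRNAs called were 0.0938% for CA1, 0.194% for DG, 0.199% for OC, 0.393% for PC, 0.0938% for PCC, 0.158% for PFC and 0.223% for TC, and 0.428% between hippocampus and neocortex. In the test of any region (1.89% of all called) 0 of the 28 passed and 5 (17.9%) had an unadjusted p under 0.05, against 11.1% of all. With voom (5.3% of all called) the leading circTNRC6C passed there, and without the 5 libraries of highest clean-read share (1.55%) the circTNRC6A called in CB. Between hippocampus and neocortex voom (12.9% of all called) also called the circRBFOX1 from 7765064 to 7785334, found in 2 of 8 hippocampal and 3 of 20 neocortical libraries (log2 difference 2.01, adjusted p = 0.0296). It likewise called the circTNRC6C from 73381613 to 73384565, found in 1 library of each (1.77, adjusted p = 0.0217). With voom counts are scaled by the depth of the library, so a 0 ranks higher in a shallow library than in a deep one. In CB, 85.1% of all circRNAs had a positive difference with voom, against 36.2% in the main limma fit. The part of this scaling in the calls by voom was not tested.

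The other circRNAs of the TNRC6 genes were not called by limma with all 32 libraries. The circTNRC6A from 23274450 to 23285452 was above 0 in all 4 CB and all 4 PC libraries and at 0 in all 4 PFC libraries (CB log2 difference 2.03, SE 0.66, adjusted p = 0.113 by limma). The leading circTNRC6C, from 73376002 to 73376592, had 29.8, 51.5, 16.5 and 39.1 TPM in TC and 0 in all 4 PCC libraries, so TC and PCC did not overlap. Its log2 difference was 2.36 (SE 0.70) for TC and -1.98 (SE 0.70) for PCC, with adjusted p-values of 0.286 and 0.518 by limma. TNRC6B held its largest circRNA (chromosome 10, 84209334 to 84212831, plus strand) in PC_10M only, with 53 reads. The next, from 84219567 to 84224982, had 27 reads in 1 library, and the one from 84253853 to 84254610, had 20 reads in 4 libraries.

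AGO2, the slicing Argonaute, gave 1 widespread circRNA, from 143031934 to 143035332 on the minus strand of chromosome 8. It held 781 of 864 reads (90.4%) and was found in 27 libraries, a number that only the 243-base circRNA of RBFOX1 also reached among the 80. Values in CB were 93.6, 25.6, 13.0 and 13.2 TPM in pools 10F, 10M, 20F and 20M, and the other 28 libraries had a lowest value of 0, a median of 25.4 and a highest of 87.3 TPM. The groups overlapped, and the exact permutation test gave p = 0.423. A circRNA from 143043709 to 143075593 had 45 reads and one from 143043709 to 143044099 had 18, each in 1 library.

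Summed over each host, none of the 9 genes was called by limma in CB (269 of 4902 hosts called, 5.49%), between hippocampus and neocortex (1.9% of hosts called) or in any region (4.22%). At an unadjusted p under 0.05 in CB there were 2 of the 9, TNRC6A and TNRC6C, against 820 of all 4902 hosts (16.7%), and voom also called 0. Of all hosts 2.96% were called as higher in CB, and by the exact permutation test 0 of the 9 and 5.88% of all hosts were higher in CB at p under 0.01. For the other regions 0 of the 9 were called as well, against 0.102% of hosts for CA1, 1.12% for DG, 0.0204% for OC, 0.0408% for PC, 0.0816% for PCC, 0.204% for PFC and 0.0816% for TC. TNRC6A was at 168, 52.6, 77.1 and 94.5 TPM in CB, a mean of 98.2 ± 49.9 TPM (SD, n = 4), against 49.97 ± 39.9 TPM (SD, n = 28) elsewhere. The log2 difference was 1.18 (SE 0.53, adjusted p = 0.247). TNRC6C was at 74.9, 36.1, 57.6 and 26.4 TPM in CB and at a median of 19.5 TPM elsewhere (range 0 to 81.6), with a log2 difference of 1.68 (SE 0.80, adjusted p = 0.279).

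In DG TNRC6C was at 0 in 3 of 4 libraries, with a log2 difference of -1.95 (SE 0.80, adjusted p = 0.325 by limma). Without the 10M pool, whose DG library held all the reads of TNRC6C in DG, it was -3.23 and passed in DG (adjusted p = 0.0281, 0.694% of hosts called) and over any region (adjusted p = 0.0418, 2.28% of hosts called). The lowest value listed for any circRNA was 12.03 TPM in DG_10F, 4.11 in DG_20F and 1.76 in DG_20M. A circRNA of TNRC6C below these levels could be missed there. QKI had its highest region means in PCC (123 ± 116 TPM), DG (82.8 ± 38.7 TPM) and CB (61.6 ± 11.6 TPM; SD, n = 4 each) and its lowest in PFC (14.3 ± 10.6 TPM). RBFOX1 ran from 159 ± 56.4 TPM in CA1 to 76.4 ± 66.5 TPM in DG. In the order of the 8 region means, none of the 7 gaps between neighbours was larger than the larger SD of the pair, for each of the 9 hosts.

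Between 10 and 20 years, limma called 0 of the 28 circRNAs (0.0293% of all called) and 0 of the 9 hosts (0% called), as did voom. At an unadjusted p under 0.05 there were 3 of the 28 (10.7%, against 5.26% of all) and 0 of the 9. Of the 28, 7 had a positive log2 difference (20 minus 10 years), with a median of -0.18, against 57.8% of all circRNAs and a median of 0.08. This leaning was in the female pools. Without the 10M or the 20M pool the age difference is 20F against 10F. Then 7 of the 28 were positive, with a median of -0.18 (50.1% and 47.5% of all positive). Without the 10F or the 20F pool it is 20M against 10M. Then 17 and 16 of the 28 were positive, with medians of 0.04 (54.0% and 52.4% of all). Both fits of a pair estimate the same difference. Unequal counts within a pair thus come from differences of 0, which rounding error puts on either side. The shares positive in these fits are therefore only approximate. The leaning also moved with the scaling. With libraries rescaled to 1 total or reads divided by size factors 11 of the 28 were positive, against 59.0% and 58.4% of all. With voom 3 were (median -0.67), but the median of all circRNAs then was -0.39 and 18.1% were positive. The circTNRC6A from 23274450 to 23285452 had the smallest p of the 28. It was found in 10 of 16 libraries at 10 years (median 11.1 TPM, range 0 to 37.4) and in 5 of 16 at 20 years (median 0, range 0 to 21.7), a log2 difference of -1.32 (SE 0.44, adjusted p = 0.775 by limma). Between the sexes 0 of the 28 circRNAs and 0 of the 9 hosts were called (0% of all), and 1 of the 28, circQKI, had an unadjusted p under 0.05, against 5.31% of all. With 16 libraries against 16 from 4 pools, these p-values measure the spread between libraries and not between animals.

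Related genes were counted from 2 lists. Of 35 other regulators of splicing and circularization, 29 had a circRNA and 20 could be tested as hosts. In CB 0 of these 20 rose and 2 fell, CELF2 (log2 difference -3.58, adjusted p = 7.46e-05 by limma) and KHDRBS3 (log2 difference -3.51, adjusted p = 0.00143), which bind RNA as CELF and STAR family proteins. Of all 4902 hosts 124 fell in CB. Among the list's 69 filtered circRNAs 1 fell in CB, from KHDRBS3 (log2 difference -2.27, adjusted p = 0.0439), and 0 rose. Of all 17050 circRNAs 124 fell in CB. Of 33 other genes of microRNA processing and silencing, 29 had a circRNA, and 0 of 20 hosts passed in CB. Among their 85 filtered circRNAs 3 rose in CB (2% of all circRNAs did), from PUM2 (log2 difference 2.54, adjusted p = 0.00385), PAN3 (1.597, adjusted p = 0.00851) and CNOT2 (2.31, adjusted p = 0.0470). PUM2 is a repressor of mRNA translation, and PAN3 and CNOT2 are subunits of deadenylase complexes. In PFC 1 of the 85 fell, from XPO5, the exporter of microRNA precursors (log2 difference -4.03, adjusted p = 0.0489), against 6 of all 17050. No circRNA or host of either list was called by age or sex.

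The hosts most like each of the 5 abundant genes were sought by Pearson correlation of log2 host sums over the 32 libraries, among 1439 hosts found in at least 24 libraries. The libraries share animals and depth, so the values only describe likeness. TNRC6C was most like CORO1C (r = 0.72), and RBFOX1 most like TRAPPC12 (0.70) and PIP4K2B (0.64). AGO2 was most like PHF2 (0.65) and ACACA (0.65), TNRC6A like SNX1 (0.63) and MIB1 (0.61), and QKI like FAM172A (0.63) and PCGF6 (0.60). For the 4 sparse hosts no value passed 0.55: TBCD (0.54) and ZNF638 (0.47) for RBFOX2, ANAPC1 (0.49) and AMPH (0.47) for TNRC6B, DNMT3A (0.47) and H2AFY2 (0.46) for MBNL2, and TTLL11 (0.44) and PRDM2 (0.43) for MBNL1.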

How the data were processed

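CircRNA expression was analysed in 32 libraries from a table with 52828 circRNAs. The TPM values were made and deposited by the authors, who per the methods of the study trimmed reads with Cutadapt, mapped them with BWA and called back-splice junctions with CIRI2 at a minimum of 2 junction reads. The values behave as reads scaled by 1 factor per library: in the library with the fewest, 99.7% of values were whole multiples of 1 read within 0.006 TPM, and reads were recovered on this basis. A circRNA was kept with at least 3 reads in 2 or more libraries of each of at least 2 regions, or of 1 region with 6 libraries in all, or with at least 30 reads in all.

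limma was fitted on log2(TPM + 2.455), where the pseudocount is the median of the lowest nonzero values of the 32 libraries. Region, age and sex were terms, and p-values were Benjamini-Hochberg adjusted over all 17050 circRNAs or 4902 hosts. The fold changes are on this scale and understate changes of low circRNAs. Exact permutation tests used all choices of 4 libraries. Libraries of 1 pool come from the same animals, so pools pair the libraries across regions. The exact permutation tests did not keep this pairing and gave shallow and deep libraries the same weight. The average correlation within pools was -0.03 for circRNAs and -0.04 for hosts. It was estimated with age and sex in the model, and the 4 pools are the combinations of age and sex. Most of any difference between pools was thus already taken up, and these values cannot show that shared animals do not matter. An alternative fit had the pool as a block. Every pool was sampled in each region, so this left the log2 differences between regions unchanged by design. Only their SEs and p-values could change.

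All 9 hosts are named, with the 3 circRNAs of most reads each, those called in a comparison by limma or voom, those with primers, and the 2 hosts most like each, except 1 that is not reported here. Other circRNAs named were chosen after their values were seen. The members and lists were chosen with earlier results of these data known. Alternatives were other pseudocounts, filters and scalings, voom, fits without covariates, and leaving out libraries or pools. The exact test of CB was added after seeing the data. Tests were tried on simulated data. Intervals cover counting error only, since no molecular identifiers are described and PCR copies were counted as reads. Python 3.11.15 and R 4.3.3 with limma 3.58.1 were used.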

Additional observations from a re-analysis of the deposited data

Results flagged for a closer look

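In 5 of 48 groups of 4 libraries (5 hosts and the sum over the 9 hosts, in 8 regions), 1 library stood apart from the other 3 by Dixon's criterion at 95%. For normal values chance gives about 1 in 20, but these values are bounded at 0. A group with 3 libraries at 0 is always flagged, and the sum contains the hosts. The 5 of 48 therefore cannot be set against that rate. The sum over the 9 hosts was 768 TPM in CB_10F and 248 to 292 TPM in the other CB libraries, and AGO2 was at 93.6 TPM in CB_10F and 13.0 to 25.6 TPM in the others. CB_10F is the shallowest library, and its values rest on 5 reads of AGO2. The host sum of TNRC6A was 193 TPM in DG_10F and 10.3 to 31.8 TPM in the other DG libraries. TNRC6C was at 49.99 TPM in DG_10M and 0 in the other 3 DG libraries, and AGO2 was at 86.9 TPM in PC_10M and 14.1 to 23.5 TPM in the other PC libraries.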

How the results depend on the processing

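The number of the 28 circRNAs called in CB, 2 as reported, was 1 with a pseudocount of 0.2455 TPM, 0 among the 8 found in at least 16 libraries (the 2 called, found in fewer, are not among them), 0 with voom and 1 without the 5 libraries of highest clean-read share in the study's sample table. It was 0 to 3 when 1 library or 1 pool was left out. The third circRNA, called without PCC_10F, was the RBFOX2 one from 79691234 to 79704309. The pool as replicate block, each scaling, the other filters and the exact permutation test gave 2. For any region the number was 0 as reported, 1 with voom, 1 without those 5 libraries and 0 to 2 with 1 library or pool left out. Between hippocampus and neocortex it was 2 with voom, where 12.9% of all circRNAs were called. Host sums gave 0 calls, except TNRC6C in DG without the 10M pool (-3.23, adjusted p = 0.0281) and for any region without that pool or DG_10M, which made the range 0 to 1 over left-out libraries and pools. Age and sex gave 0 in all 47 alternatives, and the share test gave 0 in all 7. The replicate block changed no call of the 9 genes. A test of recovered reads by edgeR was planned and not run, since values begin at 2 reads. The voom fits did use the recovered reads. Depth limits the low hosts: 1 read was worth up to 18.7 TPM, and the 10 member circRNAs found in CB_10F had 2 to 8 reads each. Causes of the changes were not tested.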

Other observations

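The circTNRC6A from 23227042 to 23256996, which has both of the splice sites that the gene used most, had 73 of its 292 reads in OC_20M and 21 reads in CA1_10M, and was at 0 in PFC_10M, PFC_20F and PFC_20M. The circRNA of RBFOX1 with the start 3 bases downstream was found in 9 of 16 libraries at 20 years and 4 of 16 at 10 years, with a log2 difference of 0.83 (SE 0.36, adjusted p = 0.810 by limma).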
